A study of Mus musculus with 9 samples.

Results

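The type I interferon-stimulated genes followed in this dataset are 39 gene symbols fixed by name, out of 55291 symbols counted in each library. The RNA came from acute myeloid leukaemia (AML) cells of the mouse, all of the genotype Trp53(R172H/delta), in which 1 allele of the p53 gene carries the missense change R172H and the other is labelled delta. The leukaemia cells had been isolated from lungs and from bone marrow of recipients labelled wild type, or came from culture, with 3 libraries per group. By its title the series is about the microenvironments of tissues, so the questions are how the set differed between lung and bone marrow, and how each of these differed from culture. How the cells were sorted from the tissues, the age and strain of the mice, and whether the leukaemia is 1 clone are not given in these labels. The host cells around the leukaemia are not described as lacking any gene. No label says that the 3 libraries of a group came from separate mice or cultures, so the p-values measure the spread between libraries, which may be technical.

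Type I interferons are secreted proteins that bind a receptor made of the subunits IFNAR1 and IFNAR2. The receptor's kinases JAK1 and TYK2 phosphorylate STAT2, which acts with IRF9 in the complex ISGF3. ISGF3 binds the interferon-stimulated response element (ISRE) in the promoters of its targets, and these encode RNA sensors, RNA-degrading and RNA-editing enzymes, antiviral effectors, the ubiquitin-like modifier ISG15 and feedback inhibitors. In blood-forming cells the same genes are known to respond to infection and to interferon made by neighbouring cells, and several of them keep a low level without any stimulus.

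Counted reads per library numbered 27485111 to 38761363, and 1 read corresponded to 0.0249 to 0.0371 CPM (read counts scaled to the TMM-adjusted library size). The labelled cell type was checked against its markers. Kit, a receptor of blood progenitors, was at 506 to 764 CPM in lung, 565 to 674 CPM in bone marrow and 1130 to 1210 CPM in culture, and Gata1 and Klf1, factors of the erythroid and megakaryocytic branches, were at 286 to 389 CPM and at 261 to 334 CPM over the 9 libraries. Ptprc, which encodes the leukocyte antigen CD45, stayed at or under 17.2 CPM, and Cebpa was at 0 in culture and at most 0.398 CPM elsewhere. Markers of other cells were present in the tissue libraries. The 10 neutrophil markers all had reads in every group and summed to 11.7 to 85 CPM in lung, 337 to 2090 CPM in bone marrow and 1.21 to 2.4 CPM in culture, and the 12 macrophage and monocyte markers to 28.4 to 74.4, 44.9 to 334 and 3.52 to 3.94 CPM in the same order, with C1qa and C1qc at 0 in culture. Lung epithelium markers summed to 14.2 to 80.9 CPM in lung and to at most 0.279 CPM in the other libraries. In such bulk libraries, fewer cells of a type and less RNA per cell cannot be told apart. The part of these other cells in the results below was not tested. Values with a library left out do not test it, since every tissue library held such markers.

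Most of the interferon-stimulated genes were higher in the libraries from either tissue than in those of cultured cells, and highest in lung. The means ranked lung, bone marrow, culture from high to low in 29 of 39 genes. Of the 39, 35 had enough reads to be tested, and Ifit3b, Mx1, Mx2 and Ifi44 did not. A gene that passed this filter only through its tissue libraries had to differ, so counts over the tested genes are descriptions. The members were also chosen with earlier results of these data known, which limits any contrast with the shares over all genes. In bone marrow against culture 24 of 39 were higher and 5 lower at an adjusted p under 0.05, where 30.7% and 29.8% of all 15066 tested genes were called higher and lower. In lung against culture 28 were higher and 4 lower, against 27.9% and 27% of all genes. Lung against bone marrow had 13 higher and 0 lower, against 14.2% and 11.1% of all genes. That count of 0 is from edgeR's quasi-likelihood test with the settings used here. At an unadjusted p under 0.05, 1 gene, Ifit2, was lower, and DESeq2 and several other edgeR settings called 1 lower.

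The median log2 change of the tested members was 0.82 in bone marrow against culture, 1.32 in lung against culture and 0.49 in lung against bone marrow, beside 0.05, 0.02 and -0.01 over all tested genes. With no filter, so that all 39 enter, and with genes at 0 reads in culture set at their lower bound (a floor of 3 reads over the group), the medians were 0.95, 1.44 and 0.54. Counted without any test, every tissue library exceeded every culture library in 26 members for bone marrow and in 31 for lung. The same held for 34.3% and 34% of tested genes. The sets are unlike, since the member counts are over all 39. They include the untested Mx1 and Mx2 in both tissues and Ifit3b in lung. Lung lay wholly above bone marrow in 16 members, against 18.5% of tested genes, and wholly below in 0, against 18.1%. The comparisons share libraries, so their counts are not independent of each other.

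**Figure D1:**
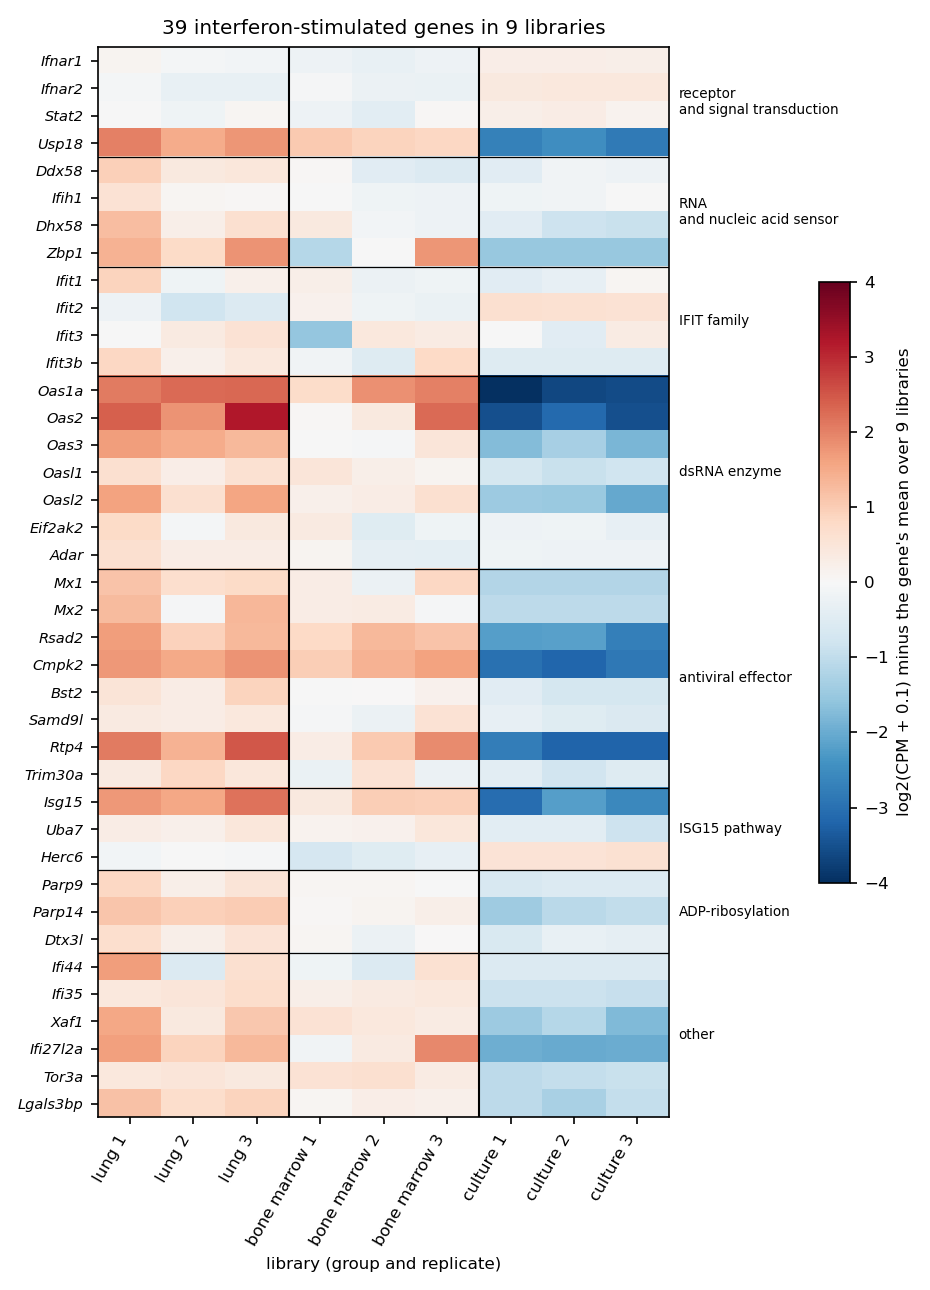
Heat map of the 39 genes (rows, grouped by role) in 9 libraries (columns: lung 1 to 3, bone marrow 1 to 3, culture 1 to 3). The colour is log2(CPM + 0.1) minus the gene's mean over the 9 libraries, from blue (low) to red (high). Most rows are red in lung, paler in bone marrow and blue in culture, and Ifnar1, Ifnar2, Stat2, Ifit2 and Herc6 run the other way, with culture highest.

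How far a gene moved went with how much of it cultured cells carried. This is a description, since the culture level enters both measures. The 9 genes with at most 3 reads in the 3 culture libraries together were Zbp1, Ifit3b, Oas1a, Oas2, Mx1, Mx2, Rtp4, Ifi44 and Ifi27l2a. Of these, 5 were tested, and all 5 were called higher in each tissue. With so few culture reads they entered the test through their tissue libraries and could not be called lower. Their count is therefore not set against the share over all genes. The 16 genes at 10 CPM or more in culture, among them Adar, Eif2ak2, Ifih1 and the receptor subunits, changed less. In bone marrow against culture 7 were higher and 5 lower (log2 changes from -1.05 to 1.21), beside 30.7% and 29.8% of all tested genes. In lung against culture 11 were higher and 4 lower (-1.1 to 1.42), beside 27.9% and 27%. The counts lower among the 16 were near the shares over all genes. All genes that were lower in a tissue belonged to these 16.

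The core of the element that ISGF3 binds was found in the promoters of part of the set. RefSeq windows of 300 bases, from 250 before to 50 after the annotated start, were matched for 28 of the 39 genes and searched on both strands for the ISRE core, TTTC and TTTC with any 2 bases between them. The core was found in 13 of the 28 genes (46.4%), against 3.99% of 27025 genes with a window. The shorter gamma-activated site TTCNNNGAA, known from responses to interferon gamma and alike on both strands, was found in 8 of 28 (28.6%), against 9.55% of genes, and overlapped an ISRE core at 1 place, in Bst2. A match is a description of the letters and not evidence of binding. The stretches of 150 bases before the start are shown for the 4 genes with a core that rose most in bone marrow against culture, and for the 2 with a window that fell most, which hold no core in it. Ifit2 has a pair of annotated starts, and the first is shown. Sequences run 5′ to 3′ on the gene's strand, and capitals mark ISRE cores, of which some overlap each other.
Oas1a (chr5:120907526-120907675, GRCm38.p6, minus strand): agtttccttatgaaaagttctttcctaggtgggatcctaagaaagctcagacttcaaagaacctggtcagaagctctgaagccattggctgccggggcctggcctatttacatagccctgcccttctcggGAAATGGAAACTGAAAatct
Rsad2 (chr12:26456453-26456602, minus strand): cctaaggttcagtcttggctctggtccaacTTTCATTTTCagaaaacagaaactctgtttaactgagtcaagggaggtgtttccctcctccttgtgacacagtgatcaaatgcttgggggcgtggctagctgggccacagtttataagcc
Isg15 (chr4:156200819-156200968, minus strand): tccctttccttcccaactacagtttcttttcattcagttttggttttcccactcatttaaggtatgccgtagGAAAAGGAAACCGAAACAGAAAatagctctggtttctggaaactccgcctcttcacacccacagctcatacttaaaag
Oas3 (chr5:120777660-120777809, minus strand): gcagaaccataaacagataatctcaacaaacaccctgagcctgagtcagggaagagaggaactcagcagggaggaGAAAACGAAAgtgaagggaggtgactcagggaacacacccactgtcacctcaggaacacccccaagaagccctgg
Herc6 (chr6:57580842-57580991, plus strand): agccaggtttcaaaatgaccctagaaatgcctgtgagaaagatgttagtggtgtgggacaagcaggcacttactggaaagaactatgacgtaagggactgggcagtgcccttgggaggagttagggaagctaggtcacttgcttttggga
Ifit2 (chr19:34550544-34550693, plus strand): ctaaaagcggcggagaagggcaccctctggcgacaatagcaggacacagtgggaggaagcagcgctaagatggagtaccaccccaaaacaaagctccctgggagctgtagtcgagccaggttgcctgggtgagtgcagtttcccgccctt

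Isg15 carries a run of 3 overlapping cores and Oas1a 2, with the first bases of the Isg15 cores at -78, -72 and -66 and of the Oas1a cores at -20 and -14 from the start. The element was not limited to genes that rose. Of the 13 genes with a core, 6 were higher and 1 (Stat2) lower in bone marrow against culture, and Ddx58, Ifih1, Ifit1, Ifit3 and Eif2ak2 did not pass there, while Ifit3b was not tested. Of the 15 with a window and no core, 9 were higher and 4, Herc6, Ifit2, Ifnar1 and Ifnar2, were lower. Over all tested genes 30.7% were higher and 29.8% lower in that comparison, so 4 of 15 lower is near the share at large. Cmpk2 and Ifi35 were called higher in both tissues with no core in this window. The windows for Usp18, Dhx58, Zbp1, Oas2, Mx1, Mx2, Rtp4, Parp9, Parp14, Ifi27l2a and Tor3a were not analysed here.

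**Figure D2:**
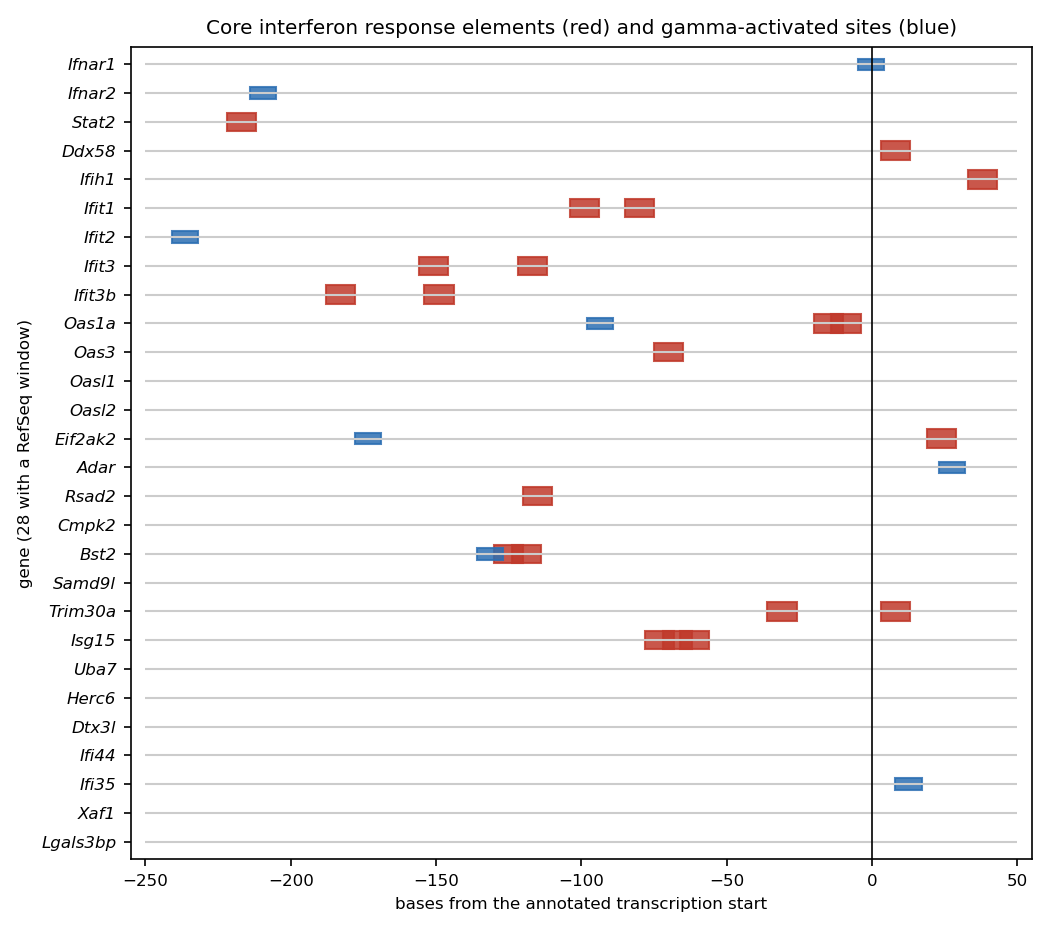
Positions of ISRE cores (red) and gamma-activated sites (blue) in the promoter windows of 28 genes, in bases from the annotated transcription start at the vertical line. Each grey line is a window of 300 bases. Cores lie before the start in Isg15, Oas1a, Oas3, Rsad2, Ifit1 and Bst2, and after it in Ddx58, Ifih1 and Eif2ak2.

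The receptor subunits were lower in cells from the tissues. Ifnar1, which docks TYK2, was at 66.4, 57.8 and 56.9 CPM in lung, 52.7, 49.9 and 52.7 CPM in bone marrow and 73.9, 74.1 and 71.4 CPM in culture. The groups were separate, with culture highest, lung next and bone marrow lowest (log2 change -0.28 ± 0.09 in lung and -0.5 ± 0.09 in bone marrow, SE; adjusted p = 0.014 and 0.00021), and lung against bone marrow did not pass (0.22 ± 0.09, adjusted p = 0.073). Ifnar2, the chain that docks JAK1, was at 72.7, 62.9 and 63.2 CPM in lung, 74.1, 64.8 and 63.9 CPM in bone marrow and 101, 104 and 103 CPM in culture. Its libraries from lung and bone marrow overlapped, and both tissues were lower than culture (-0.63 ± 0.09 and -0.6 ± 0.09; adjusted p = 4.7e-05 and 5.6e-05). Ifnar2 shares 9.46% of its exonic bases with the annotated gene Gm21970 on the same strand.

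Signal transducers split. Stat2, the ISGF3 subunit that does not bind DNA strongly by itself, was at 39.9, 35.4 and 42.3 CPM in lung, 35, 30.2 and 41.4 CPM in bone marrow and 47.2, 49.2 and 44.1 CPM in culture. It fell in bone marrow against culture (-0.4 ± 0.12, adjusted p = 0.01) and did not pass in lung (-0.26 ± 0.12, adjusted p = 0.08). Irf9, its DNA-binding partner and not in the set of 39, ran the other way. Irf9 was at 127, 94.2 and 115 CPM in lung, 98.4, 73.4 and 93 CPM in bone marrow and 39.3, 43.6 and 43.1 CPM in culture. It was higher than culture in both tissues (log2 change 1.42 ± 0.13 in lung and 1.07 ± 0.13 in bone marrow; adjusted p = 1.1e-06 and 8.9e-06), and its lung and bone marrow libraries overlapped. In the list of 10 signal transduction genes, 4 were higher and 3 lower in lung against culture, beside 27.9% and 27% of all tested genes. In bone marrow against culture 4 were higher and 6 lower, beside 30.7% and 29.8%. In lung against bone marrow 5 passed, each of them higher, beside 14.2% of all tested genes higher and 11.1% lower. Jak1, the most abundant of the list, was at 294, 314 and 251 CPM in lung, 255, 248 and 211 CPM in bone marrow and 274, 300 and 305 CPM in culture, and it was lower only in bone marrow against culture among the comparisons that passed (-0.3 ± 0.1, adjusted p = 0.017).

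Feedback inhibitors of the receptor did not move as a group: Usp18 and Socs1 were higher in both tissues than in culture and Socs3 was lower in bone marrow. Usp18, which removes ISG15 from proteins and also binds IFNAR2 to damp its signal, was at 20.3, 14 and 16.9 CPM in lung, 10.4, 9.2 and 8.73 CPM in bone marrow and 0.668, 0.8 and 0.604 CPM in culture. No 2 groups overlapped. Usp18 was 24.4-fold higher in lung and 13.5-fold higher in bone marrow than in culture (log2 change 4.61 ± 0.21 and 3.76 ± 0.2; adjusted p = 1.9e-09 and 7e-09), and higher in lung than in bone marrow by 0.86 ± 0.16 (adjusted p = 0.0023). Socs1, a JAK inhibitor outside the set, was at 49, 57.3 and 38.5 CPM in lung, 23.7, 23.6 and 22.5 CPM in bone marrow and 7.94, 7.91 and 7.81 CPM in culture, in the same order of groups with no overlap. Socs3, another inhibitor of cytokine signalling outside the set, was at 6.39, 4.34 and 6.8 CPM in lung, 0.565, 0.217 and 0.994 CPM in bone marrow and 2.89, 3.23 and 4.08 CPM in culture. The groups of Socs3 were separate with bone marrow lowest (log2 change -2.48 ± 0.39 against culture, adjusted p = 0.00012), and lung against culture did not pass (0.78 ± 0.34, adjusted p = 0.066).

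**Figure D3:**
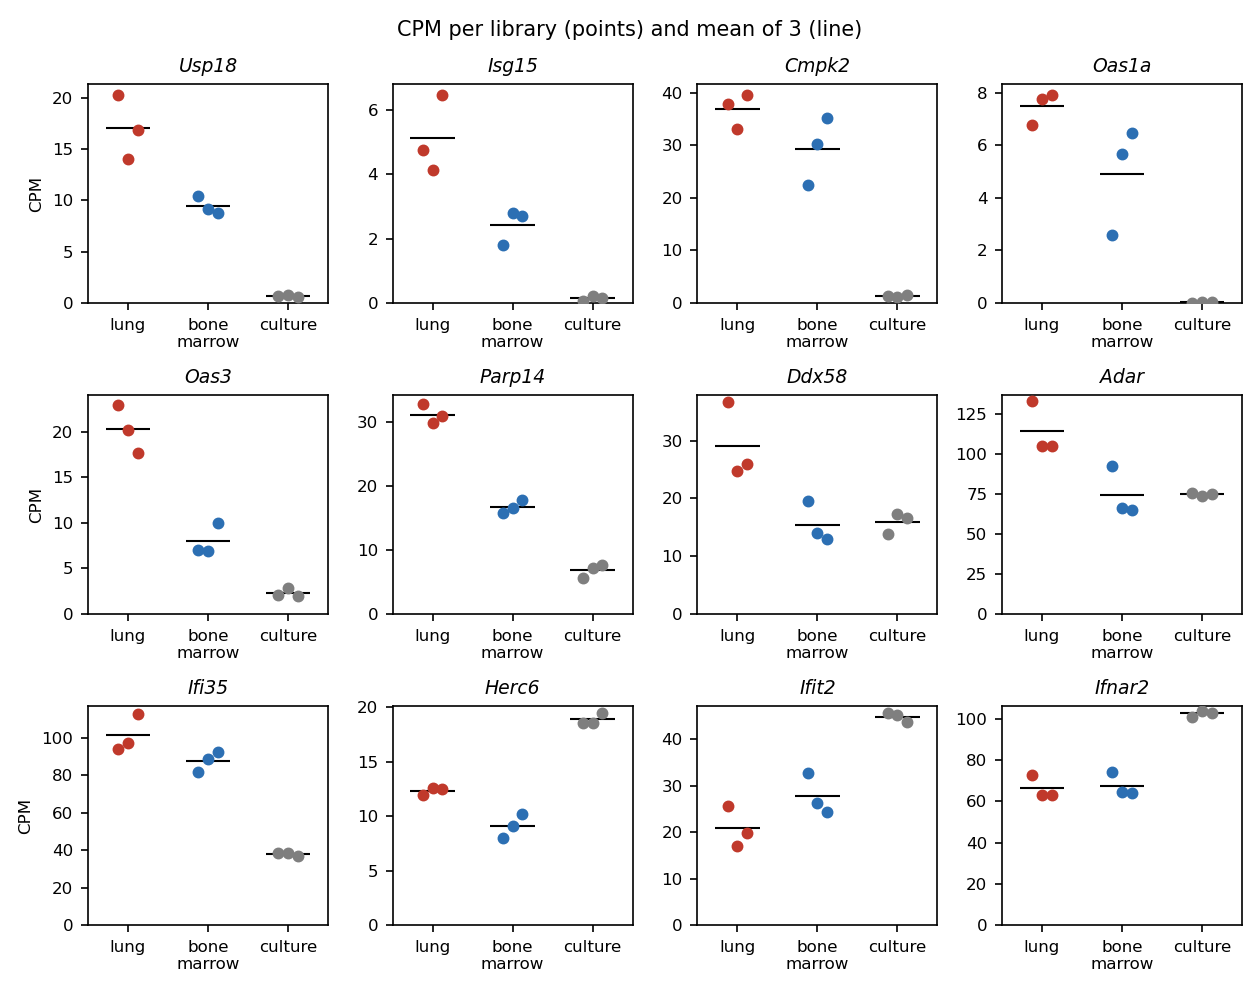
CPM of 12 of the genes in each library, with lung, bone marrow and culture from left to right, points for libraries and a line for the mean of 3. Usp18, Isg15, Oas3 and Parp14 step down from lung to bone marrow to culture without overlap, Ddx58 and Adar are high in lung alone, and Herc6, Ifit2 and Ifnar2 are highest in culture.

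The RNA sensors Ddx58 and Ifih1 passed against culture in lung and not in bone marrow. Ddx58 encodes RIG-I, the sensor of RNA with a 5′ triphosphate, and was at 36.6, 24.8 and 25.9 CPM in lung, 19.5, 14 and 12.9 CPM in bone marrow and 13.9, 17.3 and 16.6 CPM in culture. All lung libraries lay above all others, and bone marrow overlapped culture. The log2 change was 0.92 ± 0.18 against bone marrow (adjusted p = 0.0037), 0.87 ± 0.18 against culture (adjusted p = 0.0013), while bone marrow differed from culture by -0.05 ± 0.18 (adjusted p = 0.84). Ifih1, which encodes MDA5, the sensor of long double-stranded RNA, was at 60.5, 42.7 and 41.6 CPM in lung, 40.3, 36.3 and 35.5 CPM in bone marrow and 35.7, 36.6 and 40.1 CPM in culture. Its rise in lung against culture was small (0.37 ± 0.13, adjusted p = 0.03) and did not pass without lung replicate 1 or without culture replicate 1 or 2. Against bone marrow Ifih1 did not pass (0.37 ± 0.13, adjusted p = 0.055).

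Dhx58 and Zbp1, the other sensors, were higher in both tissues than in culture. Dhx58, which encodes LGP2, a regulator of both sensors above, was at 19.1, 9.53 and 12.6 CPM in lung, 10.7, 7.43 and 6.91 CPM in bone marrow and 5.82, 4.46 and 4.3 CPM in culture. Lung and bone marrow overlapped, and the call between them (0.72 ± 0.25, adjusted p = 0.049) was lost in 9 of 17 alternatives. Dhx58 rose by 1.5 ± 0.26 in lung and 0.78 ± 0.26 in bone marrow against culture (adjusted p = 0.00035 and 0.019). Zbp1, a sensor of Z-form nucleic acid, had 65 reads in lung, 42 in bone marrow and 0 in culture, which makes it at least 18.9-fold higher in lung and at least 11.6-fold higher in bone marrow, from a floor of 3 reads over the culture group. Of the 42 bone marrow reads, 35 came from replicate 3.

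No tested IFIT gene, whose proteins bind viral RNA that lacks host cap marks, was called higher in any comparison, and only Ifit2 was called lower. The means of Ifit1 and Ifit3b ranked lung, bone marrow, culture, as in most of the set. Ifit2 was at 25.6, 17 and 19.9 CPM in lung, 32.8, 26.3 and 24.3 CPM in bone marrow and 45.6, 45.2 and 43.8 CPM in culture. Culture lay above every tissue library. The log2 change was -1.1 ± 0.15 in lung and -0.69 ± 0.14 in bone marrow against culture (adjusted p = 3.1e-05 and 0.001), and -0.41 ± 0.15 in lung against bone marrow (adjusted p = 0.054). Ifit1 was at 4.87, 2.28 and 3 CPM in lung, 3.06, 2.17 and 2.31 CPM in bone marrow and 1.85, 2.03 and 2.73 CPM in culture, with overlap in every comparison and no adjusted p under 0.083. Ifit3 did not exceed 0.727 CPM in any library, and its near-identical neighbour Ifit3b had 11 reads in lung, 7 in bone marrow and 0 in culture. Reads of Ifit3 and Ifit3b are hard to assign to one copy, so both counts are uncertain. The 4 IFIT genes lie together on chromosome 19 between 34550694 and 34650009 (GRCm38), with Ifit2 and Ifit1 at the ends. The group means of Ifit2 and Ifit1 ranked differently, but no change of Ifit1 passed.

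Among the 2′-5′ oligoadenylate synthetases, which make the activator of the antiviral nuclease RNase L, the members nearly silent in culture rose furthest. Oas1a was at 6.78, 7.76 and 7.91 CPM in lung, 2.59, 5.67 and 6.46 CPM in bone marrow and 0, 0.0308 and 0.0355 CPM in culture. With 747 reads in lung, 530 in bone marrow and 2 in culture, the ratio was 326 (95% counting interval 89.9 to 2690) in lung and 219 (60.3 to 1810) in bone marrow. These exact binomial intervals cover counting error alone and treat amplified reads as independent. Oas1a has close paralogs in mouse, so its count may include their reads.

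Oas2 was at 5.89, 3.88 and 10.3 CPM in lung, 1.07, 1.39 and 5.39 CPM in bone marrow and 0, 0.0308 and 0 CPM in culture. Its single read in culture gave ratios of 583 (104 to 23100) in lung and 246 (43.8 to 9750) in bone marrow. Oas3 was at 22.9, 20.2 and 17.6 CPM in lung, 7.05, 6.94 and 9.97 CPM in bone marrow and 2.08, 2.8 and 1.92 CPM in culture. No 2 groups of Oas3 overlapped. It rose by 3.15 ± 0.2 in lung and 1.81 ± 0.2 in bone marrow against culture (adjusted p = 4.5e-08 and 4e-06), and by 1.34 ± 0.18 in lung against bone marrow (adjusted p = 0.00025), the largest change of the 13 calls between the tissues. The 3 Oas genes lie in 1 stretch of chromosome 5, Oas2 from 120730333 to 120749853, Oas3 from 120753098 to 120777661 and Oas1a from 120896256 to 120907521 (GRCm38).

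Both OAS-like genes were higher in the tissues than in culture. Oasl1, known in mouse to restrain translation of the interferon regulator IRF7, was at 44.3, 33.9 and 43 CPM in lung, 39.7, 33 and 30.3 CPM in bone marrow and 17.4, 15.1 and 16.2 CPM in culture. It was 2.49-fold higher in lung and 2.12-fold higher in bone marrow than in culture (adjusted p = 2.3e-06 and 1e-05), and the tissues overlapped (adjusted p = 0.19). Oasl2 was at 9.25, 4.63 and 9.05 CPM in lung, 3.39, 3.65 and 4.6 CPM in bone marrow and 1, 0.985 and 0.639 CPM in culture. Its log2 change was 3.12 ± 0.3 in lung and 2.14 ± 0.3 in bone marrow against culture, and 0.98 ± 0.26 in lung against bone marrow (adjusted p = 0.016), a call lost without lung replicate 1, lung replicate 3 or bone marrow replicate 2.

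Adar and Eif2ak2, the other 2 genes of enzymes that bind double-stranded RNA, were already abundant in culture. Adar, which edits adenosine to inosine, was at 133, 105 and 105 CPM in lung, 92.1, 66.3 and 64.9 CPM in bone marrow and 75.7, 73.4 and 75 CPM in culture. Every lung library exceeded every other library, and bone marrow spanned the culture values. The log2 change was 0.62 ± 0.13 in lung against bone marrow (adjusted p = 0.0056), 0.61 ± 0.13 against culture (adjusted p = 0.0017) and -0.01 ± 0.13 in bone marrow against culture (adjusted p = 0.97). Adar shares 16.8% of its exonic bases with Chrnb2 on the opposite strand, and the kits used do not mark strand. Eif2ak2, which encodes the kinase PKR that halts translation, was at 83.4, 46.4 and 64 CPM in lung, 63.1, 35.2 and 43.4 CPM in bone marrow and 42.9, 43.3 and 38.9 CPM in culture. It passed in lung against culture by a narrow margin (0.63 ± 0.24, adjusted p = 0.047), a call lost in 7 of 17 alternatives, and not in bone marrow against culture (adjusted p = 0.54) or lung against bone marrow (adjusted p = 0.19).

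Antiviral effectors were higher in both tissues in all 6 tested members, and Mx1 and Mx2 were too low to test. Cmpk2, a mitochondrial nucleotide kinase, was at 37.9, 33.1 and 39.6 CPM in lung, 22.5, 30.2 and 35.1 CPM in bone marrow and 1.34, 1.17 and 1.49 CPM in culture. The tissues overlapped each other and lay far above culture. Cmpk2 was 27.7-fold higher in lung and 22-fold higher in bone marrow than in culture (log2 change 4.79 ± 0.19 and 4.46 ± 0.19; adjusted p = 8.9e-10 and 8.6e-10). Rsad2, its neighbour on chromosome 12, encodes viperin, which makes a chain-terminating nucleotide from the product of CMPK2. Rsad2 was at 3.59, 2.09 and 2.75 CPM in lung, 1.9, 2.73 and 2.41 CPM in bone marrow and 0.148, 0.154 and 0.071 CPM in culture. It rose by 4.45 ± 0.38 in lung and 4.19 ± 0.38 in bone marrow against culture, and the tissues again overlapped (adjusted p = 0.51).

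Bst2, which encodes tetherin and holds budding virus at the cell surface, was at 36.8, 32 and 48.3 CPM in lung, 25.4, 26.3 and 29.2 CPM in bone marrow and 18.9, 15.9 and 15.7 CPM in culture. The 3 groups were separate. Bst2 rose by 1.21 ± 0.14 in lung and 0.68 ± 0.14 in bone marrow against culture (adjusted p = 1.1e-05 and 0.0011), and by 0.53 ± 0.14 in lung against bone marrow (adjusted p = 0.015), a call lost without lung replicate 3 or bone marrow replicate 2. Samd9l, an inhibitor of translation whose human gene is mutated in inherited myeloid disease, was at 20.1, 19.2 and 20.7 CPM in lung, 15.1, 13.1 and 23.1 CPM in bone marrow and 12.4, 11 and 10.4 CPM in culture. Its lung libraries were close together and its bone marrow libraries were not. The change in bone marrow against culture was 0.61 ± 0.18 (adjusted p = 0.01), and 0.33 ± 0.13 without bone marrow replicate 3 (adjusted p = 0.052).

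Trim30a, a ubiquitin ligase that restrains NF-kB signalling, was at 9.53, 13 and 10.1 CPM in lung, 6.1, 11 and 6.21 CPM in bone marrow and 5.49, 4.25 and 5.11 CPM in culture. It rose against culture by 1.14 ± 0.23 in lung and 0.65 ± 0.23 in bone marrow (adjusted p = 0.00095 and 0.026), and the second call was lost without bone marrow replicate 2, where the one high value lay, and without culture replicate 2 or 3. Rtp4, a chaperone of membrane receptors, was at 3.77, 2.32 and 5.03 CPM in lung, 1.04, 1.83 and 3.31 CPM in bone marrow and 0.0371, 0 and 0 CPM in culture. From its single culture read the ratios were 326 (58.2 to 12900) in lung and 187 (33.3 to 7430) in bone marrow. Rtp4 shares 13.9% of its exonic bases with the annotated gene Gm45338 on the same strand. Mx1 and Mx2, genes of dynamin-like GTPases known to trap viral nucleocapsids, were read in every tissue library and in no culture library. The annotation labels Mx2 a polymorphic pseudogene, so its reads do not show a working protein. Mx1 had 32 reads in lung and 21 in bone marrow, at least 9.3-fold and at least 5.78-fold above the culture floor. Mx2 had 31 and 14, at least 9.01-fold and at least 3.85-fold above it.

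The ISG15 pathway moved in opposite directions at its steps. Isg15 itself was at 4.77, 4.14 and 6.48 CPM in lung, 1.81, 2.79 and 2.71 CPM in bone marrow and 0.0742, 0.215 and 0.142 CPM in culture. No 2 groups overlapped. It was 34-fold higher in lung and 16.2-fold higher in bone marrow than in culture (log2 change 5.09 ± 0.37 and 4.01 ± 0.37; adjusted p = 1.3e-07 and 8.4e-07), and 2.1-fold higher in lung than in bone marrow (adjusted p = 0.011, and 0.051 without lung replicate 3). Uba7, the enzyme that activates ISG15, was at 176, 164 and 193 CPM in lung, 156, 159 and 195 CPM in bone marrow and 105, 105 and 79.7 CPM in culture. The tissues overlapped and were higher than culture by 0.88 ± 0.12 and 0.82 ± 0.12 (adjusted p = 4.2e-05 and 6.2e-05).

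Herc6, which in mouse is the main ligase that attaches ISG15 to proteins, was at 11.9, 12.6 and 12.5 CPM in lung, 8.03, 9.07 and 10.2 CPM in bone marrow and 18.6, 18.6 and 19.5 CPM in culture. It shares 13.7% of its exonic bases with the annotated gene Gm45193 on the same strand. The groups were separate in the order that Ifnar1 also showed, with culture highest, lung next and bone marrow lowest. Herc6 fell by 0.62 on the log2 scale in lung and by 1.05 in bone marrow against culture (SE 0.12 each; adjusted p = 0.00074 and 6.9e-06). It was higher in lung than in bone marrow by 0.44 ± 0.12 (adjusted p = 0.02), a call lost when the 6 libraries were fitted alone and without lung replicate 2 or bone marrow replicate 2.

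The 3 ADP-ribosylation genes were each higher in lung than in bone marrow and higher in bone marrow than in culture. Parp14, a mono-ADP-ribosyltransferase, was at 32.8, 29.8 and 30.9 CPM in lung, 15.8, 16.6 and 17.9 CPM in bone marrow and 5.6, 7.23 and 7.6 CPM in culture. Every step was wider than the spread within groups. Its log2 change was 2.19 ± 0.13 in lung and 1.3 ± 0.13 in bone marrow against culture (adjusted p = 2.6e-08 and 1.7e-06), and 0.9 ± 0.12 in lung against bone marrow (adjusted p = 3e-04). Parp9 and Dtx3l encode partners of 1 complex and are transcribed away from each other, with 458 overlapping exonic bases that leave some reads unassignable. Parp9 was at 70.3, 46.6 and 56.6 CPM in lung, 41.4, 41 and 39 CPM in bone marrow and 24.9, 26.8 and 26.6 CPM in culture. Dtx3l was at 74, 54.7 and 68.9 CPM in lung, 49.2, 39.5 and 47 CPM in bone marrow and 30.5, 37.8 and 36.8 CPM in culture. For both genes the 3 groups were separate, and the changes between lung and bone marrow were alike, at 0.52 ± 0.13 and 0.54 ± 0.13 (adjusted p = 0.0095 and 0.0084). The rise of Dtx3l in bone marrow against culture was small (0.37 ± 0.13, adjusted p = 0.024), and lost in 3 of 17 alternatives.

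Among the remaining members, Ifi35, an interferon-induced leucine zipper protein, was at 94.1, 97.3 and 113 CPM in lung, 81.6, 88.8 and 92.5 CPM in bone marrow and 38.5, 38.3 and 36.8 CPM in culture. It shares 16.8% of its exonic bases with the annotated gene Gm11626 on the opposite strand. Ifi35 was 2.68-fold higher in lung and 2.32-fold higher in bone marrow than in culture (adjusted p = 5.6e-08 and 1.4e-07), and did not pass between the tissues (0.21 ± 0.09, adjusted p = 0.099) although they did not overlap. Tor3a, a torsin-family ATPase, was at 23.5, 24.6 and 23 CPM in lung, 26.1, 27.1 and 22 CPM in bone marrow and 8.42, 9.05 and 9.45 CPM in culture. It was the single member whose mean was highest in bone marrow, but the tissues overlapped (-0.08 ± 0.11, adjusted p = 0.63).

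Xaf1, an antagonist of the caspase inhibitor XIAP, was at 5.4, 2.38 and 3.92 CPM in lung, 2.74, 2.45 and 2.26 CPM in bone marrow and 0.594, 0.769 and 0.462 CPM in culture. Lgals3bp, which binds galectin-3, was at 5.92, 4.31 and 4.9 CPM in lung, 2.74, 3.1 and 3.01 CPM in bone marrow and 1.19, 0.985 and 1.28 CPM in culture. Both were higher in each tissue than in culture, Xaf1 by 2.67 ± 0.33 and 2.01 ± 0.33 and Lgals3bp by 2.13 ± 0.22 and 1.36 ± 0.22. Between the tissues Lgals3bp passed (0.78 ± 0.2, adjusted p = 0.014, lost without lung replicate 1) and Xaf1, with overlapping libraries, did not (adjusted p = 0.11). Ifi27l2a, a small mitochondrial protein gene, was at 1.57, 0.881 and 1.2 CPM in lung, 0.387, 0.588 and 1.94 CPM in bone marrow and 0.0371, 0.0308 and 0.0355 CPM in culture, 3 reads in all in culture. Ifi44 had 18 reads in lung, 6 in bone marrow and 0 in culture.

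**Figure D4:**
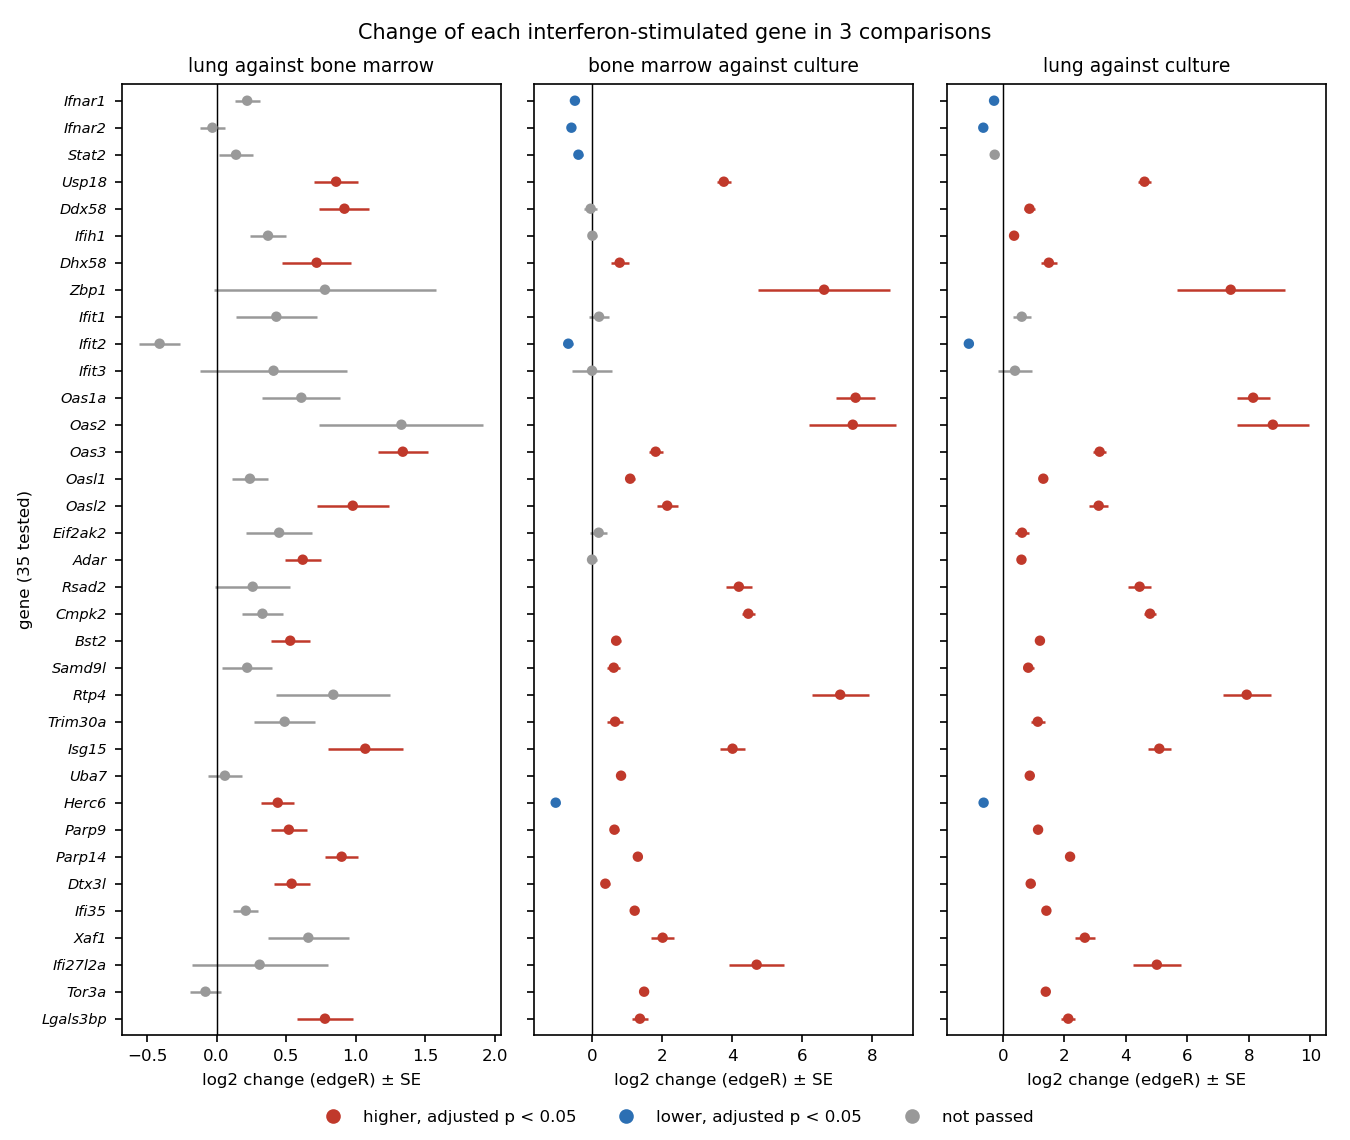
Log2 change ± SE of the 35 tested genes in panels for the 3 comparisons, the first of which is lung against bone marrow, with separate scales. Red marks higher, blue lower and grey not passed at an adjusted p of 0.05. All 13 calls in the first panel are higher in lung, between 0.44 (Herc6) and 1.34 (Oas3), while fitted changes against culture reach 8.78 (Oas2, with 1 culture read).

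Between the tissues, the changes were of modest size. The 13 genes higher in lung than in bone marrow were Usp18, Ddx58, Dhx58, Oas3, Oasl2, Adar, Bst2, Isg15, Herc6, Parp9, Parp14, Dtx3l and Lgals3bp, of which 2 changed more than 2-fold. Of them, 7 kept the call in each of 17 alternatives: Usp18, Ddx58, Oas3, Adar, Parp9, Parp14 and Dtx3l. Of the 13, 10 were also higher in both tissues than in culture, Ddx58 and Adar were higher than culture in lung alone among the calls, and Herc6 was lower in both. The genes with the largest fitted changes in bone marrow against culture (Oas1a, Oas2, Rtp4, Zbp1, Ifi27l2a, Cmpk2 and Rsad2) did not pass between lung and bone marrow with all libraries, while Isg15 and Usp18, next in that order, did.

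For these genes other than Rsad2, lung against bone marrow passed once bone marrow replicate 3 was left out, and Rtp4 also passed with all libraries and no filter (adjusted p = 0.037). Oas2, Rtp4, Ifi27l2a and Zbp1 were each highest of the bone marrow libraries in replicate 3, at 5.39, 3.31, 1.94 and 0.87 CPM there, while replicates 1 and 2 did not exceed 1.39, 1.83, 0.588 and 0.186 CPM. The same library had the highest sums of neutrophil markers (2090 CPM, against 337 and 592 CPM in replicates 1 and 2), of macrophage and monocyte markers (334 CPM, against 44.9 and 81.3 CPM) and of B and plasma cell markers (12 CPM, against 1.49 and 1.52 CPM). Ptprc was at 17.2 CPM in it, against 1.78 and 2.42 CPM. Over the set, bone marrow replicate 3 had the highest bone marrow value of 19 of the 39 members, replicate 1 of 13 and replicate 2 of 7. Usp18 and Xaf1 were lowest of bone marrow in replicate 3, at 8.73 and 2.26 CPM.

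Without bone marrow replicate 3, 19 members were higher in lung than in bone marrow in place of 13, with Dhx58 lost and 7 gained. In the same fit 1 member (Ifit2) was lower, and of all 15508 tested genes 2016 were higher and 1725 lower. Oas2 then changed by 2.42 ± 0.39 (adjusted p = 0.001), Zbp1 by 2.54 ± 0.72 (0.023), Rtp4 by 1.35 ± 0.37 (0.018), Ifi27l2a by 1.31 ± 0.41 (0.031), Oas1a by 0.84 ± 0.28 (0.041), Samd9l by 0.49 ± 0.13 (0.018) and Cmpk2 by 0.47 ± 0.14 (0.03). In bone marrow against culture these genes were also higher without it, Oas2 by 6.33 ± 0.82, Rtp4 by 6.55 ± 0.74, Ifi27l2a by 3.68 ± 0.63 and Oas1a by 7.27 ± 0.54, except Samd9l, and the call of Dtx3l was lost as well. In lung, replicate 1 had the highest value of 23 of the 39 members, replicate 3 of 13 and replicate 2 of 3. Replicate 1 also had the highest sums of neutrophil and lung epithelium markers in lung, at 85 and 80.9 CPM, against 11.7 to 12 and 14.2 to 37.5 CPM in the other lung libraries.

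**Figure D5:**
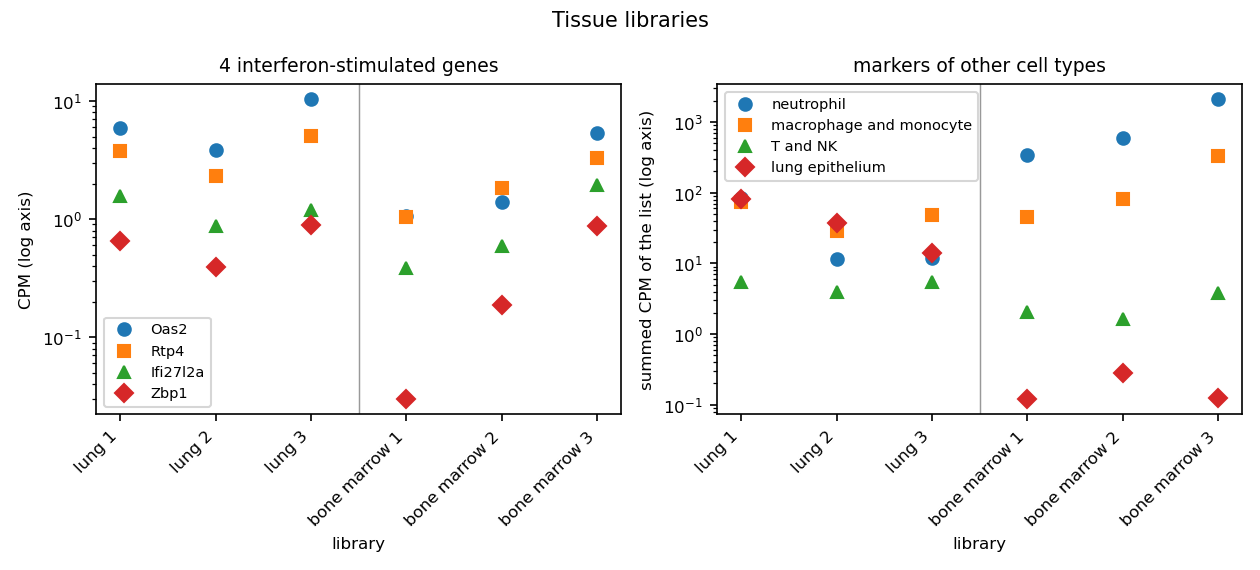
Left, CPM of Oas2, Rtp4, Ifi27l2a and Zbp1 in the 6 tissue libraries on a log axis; right, summed CPM of marker lists of other cell types in the same libraries on a log axis. Bone marrow 3 has the highest value of all 4 genes among the bone marrow libraries and the highest neutrophil and macrophage sums.

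Almost no reads were counted for the interferons themselves. How reads that match several genes were counted is not given. Of 18 type I interferon genes, 2 had any read: Ifnb1 had 1 read in lung and Ifnz 3 reads in culture, out of 100059104 and 89869245 reads. Bone marrow had 0 of 104054589, which allows a level of up to 0.0288 CPM for each gene, for counting error only. Ifng had 3 reads in lung and 0 in bone marrow and culture, and the type III genes Ifnl2 and Ifnl3 had 0 reads anywhere. The other receptors were present. Ifngr1, a subunit of the interferon gamma receptor, was at 642, 635 and 570 CPM in lung, 577, 749 and 619 CPM in bone marrow and 467, 489 and 500 CPM in culture, higher in both tissues than in culture (0.34 ± 0.1 and 0.42 ± 0.1; adjusted p = 0.008 and 0.002), opposite to Ifnar1 and Ifnar2. Ifnlr1, the type III receptor's own chain, was at 10.3, 9.3 and 9.43 CPM in lung, 13.2, 12.6 and 17.1 CPM in bone marrow and 3.3, 4.52 and 2.98 CPM in culture, and lower in lung than in bone marrow (-0.57 ± 0.17, adjusted p = 0.027).

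Genes that sense nucleic acid upstream of interferon moved in part with the set. Of 14 tested, 8 were higher and 2 lower in lung against culture, and 7 higher and 3 lower in bone marrow against culture. In lung against bone marrow 3 passed, each higher. Of all tested genes, 27.9% were higher and 27% lower in lung against culture. These shares were 30.7% and 29.8% in bone marrow against culture, and 14.2% and 11.1% in lung against bone marrow. The 3 of 14 between the tissues is not far above its share. Irf7, the factor that amplifies interferon genes, was at 48.9, 30.8 and 38.7 CPM in lung, 22.3, 21.5 and 21 CPM in bone marrow and 4.27, 4.31 and 3.69 CPM in culture, separate in all 3 groups. Cgas, the sensor of cytosolic DNA, was at 9.43, 9.79 and 9.01 CPM in lung, 5.21, 5.14 and 4.65 CPM in bone marrow and 6.53, 6.8 and 6.21 CPM in culture. Its bone marrow level was below culture (-0.38 ± 0.14, adjusted p = 0.031) and its lung level above (0.53 ± 0.14, adjusted p = 0.0055). The list of targets that lean towards interferon gamma shares Socs1 with the signal transduction list. Of its 16 tested genes, 14 were higher in lung against culture, and 10 higher and 3 lower in bone marrow against culture. In lung against bone marrow 9 were higher and 1 (Psmb9) lower. The same shares over all genes apply to this list. Psmb9, an immunoproteasome subunit, was at 38.6, 42.2 and 47.1 CPM in lung, 50.1, 64.4 and 55.5 CPM in bone marrow and 23.6, 24.1 and 22.2 CPM in culture.

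Per kilobase of exonic length, the genes differed widely in level. Ifi35 was at 59.1 CPM per kb in lung, 50.7 in bone marrow and 21.9 in culture, and Bst2 at 43.2, 29.8 and 18.6 CPM per kb in the same order. In culture Ifnar2 led the set at 30.9 CPM per kb, above Ifi35. Cmpk2 was at 8.86 CPM per kb in lung, 7.04 in bone marrow and 0.319 in culture, while Isg15, often the most visible gene of this response, was at 6.79, 3.23 and 0.19 CPM per kb. The median coefficient of variation between libraries was larger over tested members than over all tested genes. It was 18.6% in lung, 16.4% in bone marrow and 11.7% in culture, against 11.5%, 13.7% and 6.75%. Members and other genes were not matched on level. Counting error enters the values of members with few reads, such as Oas2 with 1 in culture.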

How the data were processed

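RNA-seq was analysed from 9 libraries of mouse AML cells, 3 each from lung, bone marrow and culture. Per the labels' protocols, RNA extraction used RNeasy Plus Micro columns, and SMART-seq v4 and ThruPLEX kits gave the libraries. Per the submitters' processing notes, the authors used bcl2fastq and aligned with STAR to mm10. Neither counting tool nor annotation is given in the sources used here. In the deposited files each gene symbol has 1 raw count, which the authors left unscaled.

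Genes were filtered with filterByExpr, leaving 15066 of 55291, and scaled with TMM. Groups were compared in 1 edgeR 4.0.16 quasi-likelihood fit (robust, R 4.3.3) on all 9 libraries, with Benjamini-Hochberg adjustment over all tested genes and a threshold of 0.05. Adjusted p-values are from this test unless another is named. Alternatives were scaling by RLE, by upper quartile or by library size, no filter, a stricter filter (1 CPM in 6 libraries), DESeq2 1.42.0, fits of 6 libraries alone, the replicate number as a block, and leaving out each library. The pipeline was tested on simulated counts with known changes. The members and the lists of pathway and marker genes were chosen with earlier results of these data known. By a rule written with the design, library values are given for members with a mean of 5 CPM or more in some group, or with a called change and at least 1 CPM. The remaining members are given by counts. Of the pathway lists at most 4 genes each are named, the most abundant and those a member's result turns on. Values of 1 gene of these lists are not reported here. Cgas, Psmb9 and Ifnlr1 were named after their values were seen.

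Loci and exonic lengths come from GENCODE M21 (GRCm38), and promoter windows from RefSeq (GRCm38.p6). Libraries of the same number were not treated as pairs. Their deviations from the group mean correlated at 0.03, 0.27 and 0.09 between lung and bone marrow over all tested genes, and no label says that a number marks a shared mouse or day.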

Additional observations from a re-analysis of the deposited data

Results flagged for a closer look

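For 13 members the change against culture differed between the tissues, as tested by the contrast of lung against bone marrow itself. Its log2 values, each higher in lung, were 1.34 for Oas3, 1.07 for Isg15, 0.98 for Oasl2, 0.92 for Ddx58, 0.9 for Parp14, 0.86 for Usp18, 0.78 for Lgals3bp, 0.72 for Dhx58, 0.62 for Adar, 0.54 for Dtx3l, 0.53 for Bst2, 0.52 for Parp9 and 0.44 for Herc6. Oas3 is the largest of these. Ddx58 and Adar differed from culture in lung and did not pass in bone marrow, and Herc6 is the one of the 13 that was lower than culture in both. Groups of 3 libraries are too small for a formal test of outlying values within a group.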

How the results depend on the processing

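Counts of members higher or lower stayed within 1.5 times of the reported ones, except that 1 member, Ifit2, in place of 0 was lower in lung against bone marrow with upper-quartile scaling (1), library size scaling (1), no filter (1), the stricter filter (1), DESeq2 (1) and the replicate block (1). The cause was not tested. Leaving out single libraries gave 10 to 19 members higher and 0 to 1 lower in lung against bone marrow. Of all genes tested there, 1430 to 2676 were higher and 928 to 2084 lower. Bone marrow against culture had 23 to 26 higher and 5 lower, beside 3916 to 4713 and 4046 to 4633 of all tested genes. Lung against culture had 26 to 31 higher and 4 to 5 lower, beside 3469 to 4542 and 3673 to 4395. These fits tested 15506 to 15736 genes. With the replicate block, which no label supports as a pairing, lung against bone marrow had 18 higher members (among those gained Oas2 at 1.57, Oas1a at 0.7 and Rtp4 at 0.9), bone marrow against culture 24 higher and 5 lower, and lung against culture 28 higher and 4 lower. No called member changed direction in any alternative run. In bone marrow against culture 25 of 29 calls stood in every alternative that tested the gene, in lung against culture 30 of 32, and in lung against bone marrow 7 of 13. The stricter filter left Zbp1 and Ifi27l2a untested. Depth limits Ifit3, Ifit3b, Mx1, Mx2, Ifi44 and Zbp1, which had 65 reads or fewer in any group.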
